A study of Mus musculus with 12 samples.

Results

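The regions described here are the 463 peaks of open chromatin that were higher in every library from Pbrm1 knockout germinal center B cells than in every library from wild-type cells. They were chosen by their counts. CPM was the count in a peak divided by the column total of its library and multiplied by 1000000. A peak was taken when it lay on an autosome, had a mean of at least 2 CPM over the 12 libraries, had its lowest HOMO value above its highest WT value, and had a mean HOMO value of at least 1.3 times the mean WT value. Of the 68689 peaks in the table, 67159 were autosomal and 60792 of these also reached 2 CPM. These 60792 are called eligible peaks, and the 463 members made up 0.762% of them. Because the rule used the difference between genotypes, the genotype values below describe the members and were not tested.

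The study measured chromatin accessibility by Omni-ATAC-seq, in which a transposase places sequencing adapters into open DNA, in germinal center B cells sorted from the spleens of C57BL/6 mice aged 8 to 10 weeks. WT mice had the genotype Pbrm1+/+ and HOMO mice Pbrm1-/-, and each genotype gave 3 libraries of each of 2 sorted populations, named CB and CC in the labels and not spelled out there. The column names of the count table begin with Pbrm1AID, which is not explained in the sources used here, so the construction of the allele, the cells in which it was deleted and the deleted part of the gene are not known. Whether the libraries are from different mice is not stated in the labels, and p-values here therefore measure spread among libraries, part of which may be technical.

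PBAF is one of the SWI/SNF remodelers and uses ATP to move or evict nucleosomes, and Pbrm1 encodes its polybromo subunit, whose bromodomains bind acetylated histones. Germinal center B cells pass between a dark zone, where they divide and mutate their antibody genes, and a light zone, where they are selected by antigen and helper T cells. Open chromatin in such cells lies both at promoters and at distal elements, many of which are enhancers bound by B cell transcription factors.

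Sequence was read only for members at annotated transcription starts, from the RefSeq promoter table of build GRCm38.p6, the assembly that mm10 names. A promoter window ran from 250 bases before to 50 bases after a start. Of the 463 members 14 overlapped such a window (3.02%), against 9441 of the 60792 eligible peaks (15.5%). The parts of 6 of the 14 that lie inside the peak are shown, 5′ to 3′ on the strand of the gene and only before the start: Lhx3, the start with the largest ratio, Itga4, an integrin gene with one of the most accessible starts among members, and 4 that hold a searched motif. Capitals mark a motif match and lower case all other bases. The windows are Lhx3 chr2:26208250-26208499 (minus strand), Itga4 chr2:79255176-79255425 (plus), Adam8 chr7:139992563-139992771 (minus), Bahcc1 chr11:120232697-120232946 (plus), Synm chr7:67759743-67759992 (minus) and Prkcz chr4:155361429-155361677 (minus).
Lhx3: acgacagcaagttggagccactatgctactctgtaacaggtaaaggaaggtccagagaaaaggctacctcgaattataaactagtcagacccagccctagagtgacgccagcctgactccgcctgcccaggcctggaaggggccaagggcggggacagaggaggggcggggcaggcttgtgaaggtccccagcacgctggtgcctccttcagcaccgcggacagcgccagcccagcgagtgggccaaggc
Itga4: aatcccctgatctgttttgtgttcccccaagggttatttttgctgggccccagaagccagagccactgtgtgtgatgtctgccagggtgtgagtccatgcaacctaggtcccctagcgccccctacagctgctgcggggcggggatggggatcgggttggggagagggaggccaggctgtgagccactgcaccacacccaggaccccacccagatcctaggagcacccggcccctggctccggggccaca
Adam8: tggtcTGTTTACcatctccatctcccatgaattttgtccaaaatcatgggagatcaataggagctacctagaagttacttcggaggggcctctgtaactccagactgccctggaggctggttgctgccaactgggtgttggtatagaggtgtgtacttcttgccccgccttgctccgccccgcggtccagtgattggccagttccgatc
Bahcc1: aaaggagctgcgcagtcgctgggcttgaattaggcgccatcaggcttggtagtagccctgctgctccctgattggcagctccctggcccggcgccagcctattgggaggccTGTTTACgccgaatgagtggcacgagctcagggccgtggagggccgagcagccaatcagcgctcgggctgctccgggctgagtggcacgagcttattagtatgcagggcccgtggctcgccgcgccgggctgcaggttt
Synm: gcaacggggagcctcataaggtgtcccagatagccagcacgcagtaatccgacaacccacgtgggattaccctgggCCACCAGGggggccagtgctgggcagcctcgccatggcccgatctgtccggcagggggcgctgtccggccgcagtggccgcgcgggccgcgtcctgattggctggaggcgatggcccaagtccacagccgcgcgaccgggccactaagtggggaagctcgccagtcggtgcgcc
Prkcz: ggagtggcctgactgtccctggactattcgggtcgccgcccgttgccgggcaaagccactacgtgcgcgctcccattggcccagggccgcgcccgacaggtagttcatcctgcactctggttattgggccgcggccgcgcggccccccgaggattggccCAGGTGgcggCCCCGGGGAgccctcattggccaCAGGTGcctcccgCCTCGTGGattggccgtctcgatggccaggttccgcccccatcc

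In these sequences Adam8 and Bahcc1 each held a forkhead motif of the Foxo type, Synm held a CTCF-type motif, and Prkcz held a CTCF-type motif, 2 E-boxes and an EBF-type motif, none of which overlapped another. No searched motif was found in the printed Lhx3 and Itga4 sequences. The motifs were searched on both strands of the whole windows. The Foxo motif (GTAAACA) stood in 2 of the 14 member windows, in 2.24% of the 11271 windows with an eligible peak and in 3.65% of all 32851 windows. The CTCF motif (CCACNAGG) stood in 2 of 14, against 5.8% and 4.99%. The Runx motif (TGTGGTTT) also stood in 2 of 14, against 1.09% and 1.78%.

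The E-box of E proteins (CAGGTG) stood in 4 of 14 member windows, against 18.5% of windows with an eligible peak and 20.2% of all windows. The EBF motif (CCCNNGGGA) stood in 1, against 8.24% and 6.56%, and the PU.1 motif (GAGGAAGT) in 1, against 3.42% and 3.2%. None of the 14 windows held the motif of ETS factors (CCGGAAGT), against 8.85% of windows with an eligible peak and 3.89% of all windows. Also absent were the motifs of the octamer (ATGCAAAT, 1.54% and 1.74%), AP-1 (TGANTCA, 4.24% and 7.81%) and NF-kB (GGGANTTTC, 0.905% and 1.11%). The same held for IRF (AAANNGAAA, 6.8% and 10.6%), Mef2 (CTATTTATA, 0.284% and 0.429%) and NRF1 (GCGCATGCG, 3.89% and 1.75%). With 14 windows these are descriptions of single sequences, and a match is not a site of binding. The median GC content of the 14 windows was 64.5%, against 62% in windows with an eligible peak, and their median number of CpG dinucleotides was 15.5, against 22.

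The shallowest library, HOMO CC 1, had 6431354 counts in peaks and the deepest, HOMO CB 3, had 45590454. At the sorted cells' defining genes, all 10 germinal center B cell markers had a gene-end peak, with medians over libraries of 23.6 to 83.1 CPM. Gene-end peaks were present at 5 of 15 T cell markers, 4 of 13 myeloid markers, 3 of 11 erythroid markers and 2 of 10 natural killer cell markers. The medians over libraries were 6.22 to 23 CPM at the T cell markers, with Cd5 and Cd3d (21.4 CPM) highest, 2.39 to 45.7 CPM at the myeloid markers, with Cebpb highest and Cebpa at 13 CPM, 1.87 to 9.07 CPM at the erythroid markers and 1.76 to 3.94 CPM at the natural killer cell markers. No gene-end peak was present at Cd3e, Lck, Csf1r, Gata1 or Ncr1. WT CB 2 and WT CC 2 stood apart at a peak in Xist (0.453 and 0.813 CPM, against 4.91 to 16.7 in the other 10 libraries). Without both of these libraries 1248 peaks met the rule, 452 of the 463 members among them. Without HOMO CB 1 and HOMO CC 1, the shallowest pair, 1077 peaks met it, with 418 of the 463 members.

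The members were moderately open regions, with mean values of 2.01 to 62.9 CPM and a median of 6.92 CPM, against 9.28 CPM over eligible peaks. Their HOMO to WT ratio had a median of 1.5 and reached 7.73. It was at least 1.5 in 230 members, at least 2 in 49 and at least 3 in 4. Eligible peaks with all HOMO libraries above all WT libraries at any ratio numbered 797 (1.31%), so 334 separated peaks were left out by the ratio. The mirrored rule, with every HOMO library below every WT library and the ratio inverted, took 1828 peaks. In bulk samples, a larger share of cells with a region open and more accessibility per cell cannot be told apart.

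By library, the median over members was 5.03 to 5.43 CPM in the 6 WT libraries and 8.05 to 8.83 CPM in the 6 HOMO libraries. The lowest HOMO value of a member came most often from HOMO CC 3 (130 members) and the highest WT value most often from WT CC 2 (128 members). Depth set how finely a value was measured: the median member had 45 reads in WT CB 2 and 392 in HOMO CB 3, and the lowest count of any member was 5, in WT CB 2.

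The ratio was computed for CB and CC apart to describe how the members varied. The median was 1.52 in CB and 1.46 in CC, and 281 of 463 members had the larger ratio in CB. Both ratios were at least 1.3 in 380 members. The ratio was under 1.3 in CB for 22 members and in CC for 61. Across the 463 members Pearson's r between the log2 ratios was 0.731, given as a description, since all members were selected in both populations and share the same libraries.

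**Figure D1:**
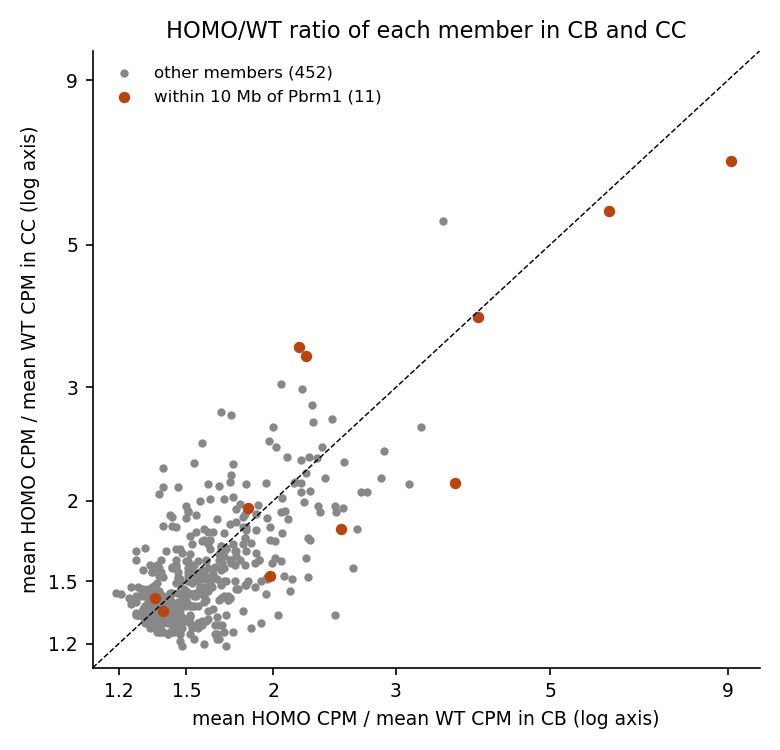
Mean HOMO CPM divided by mean WT CPM in CB (horizontal, log axis) and in CC (vertical, log axis) for each of the 463 members. The dashed line marks equal ratios, coloured points are the 11 members within 10 Mb of Pbrm1, and the Fam25c, Wapl and Wdfy4 peaks among them have ratios of 9.09, 6.08 and 3.94 in CB and 6.73, 5.64 and 3.86 in CC.

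The members of largest ratio lay at genes of varied function, and several lay near Pbrm1 on chromosome 14. First was a peak 5553 bp from Fam25c (peak_52979, chr14:34363642-34364142), with 0.48, 0.566 and 1.42 CPM in the WT CB libraries, 0.885, 0.438 and 2.05 in WT CC, 9.38, 7.27 and 5.81 in HOMO CB and 7.62, 7.71 and 7.4 in HOMO CC. Next was a peak 4592 bp from Wapl, the gene of the factor that releases cohesin from chromatin (peak_52996, chr14:34752325-34752825), with 1.82, 2.38 and 4.68 CPM in the WT CB libraries, 2.09, 1.75 and 5.07 in WT CC, 18.5, 17.7 and 17.8 in HOMO CB and 16.3, 16.8 and 17.2 in HOMO CC. Both regions had few reads in WT, and WT CB 3 and WT CC 3 had the highest WT values at both. The lowest HOMO value was 3.22 times the highest WT value at the Wapl peak and 2.83 times at the Fam25c peak.

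A peak at Tas1r3, the gene of a taste receptor subunit, had 1.39, 1.02 and 3.01 CPM in the WT CB libraries, 0.965, 0.751 and 1.62 in WT CC, 4.95, 7.25 and 6.82 in HOMO CB and 4.04, 6.74 and 7.37 in HOMO CC (peak_17383, chr4:155859202-155859702, at a gene end). Inside Wdfy4, a gene required for antigen cross-presentation in dendritic cells, a peak had 1.73, 2.72 and 2.22 CPM in the WT CB libraries, 2.33, 1.5 and 2.12 in WT CC, 7.29, 8.86 and 10.1 in HOMO CB and 7.93, 8.12 and 6.93 in HOMO CC (peak_52937, chr14:33099036-33099536). At Wdfy4 the spread within each group was small beside the distance between genotypes, whereas at Tas1r3 WT CB 3 (3.01 CPM) and HOMO CC 1 (4.04 CPM) came close to each other.

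Within Jak1, which encodes a tyrosine kinase of cytokine receptors, a peak had 2.02, 2.27 and 2.53 CPM in the WT CB libraries, 2.49, 3.13 and 2.22 in WT CC, 10.2, 6.68 and 5.4 in HOMO CB and 9.95, 6.47 and 3.96 in HOMO CC (peak_15155, chr4:101169606-101170106). The HOMO libraries numbered 1 were highest and those numbered 3 lowest at Jak1, with 3.96 CPM in HOMO CC 3 against a highest WT value of 3.13 CPM. Within Nsun3, the gene of a methyltransferase of mitochondrial tRNA, a peak had 4.42, 5.78 and 5.03 CPM in the WT CB libraries, 3.3, 3.88 and 4.94 in WT CC, 11.7, 12.4 and 12.9 in HOMO CB and 10.3, 12.1 and 10.2 in HOMO CC (peak_59708, chr16:62758186-62758686). The Nsun3 groups were tight, and its ratio was 2.43 in CB and 2.68 in CC.

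At the start of Lhx3, the homeodomain factor gene whose promoter is printed above, the values were 2.02, 1.81 and 3.64 CPM in the WT CB libraries, 3.06, 3.57 and 3.08 in WT CC, 7.42, 6.46 and 7.66 in HOMO CB and 6.53, 7.52 and 9.19 in HOMO CC (peak_5315, chr2:26208008-26208508). Its midpoint lay 9 bp from the annotated start, and the highest WT library had 3.64 CPM against 6.46 CPM in the lowest HOMO library. Other members among the 20 genes of largest ratio lay at Arhgap22 (2.79), Ccser2 (2.68), Mex3d (2.65), Golga7b (2.54), Incenp (2.49), Prex1 (2.47), Odf2 (2.45), Mtf1 (2.41), Sec11a (2.39), Dyrk1b (2.39), Naa25 (2.38), Ddi2 (2.32) and Ccnc (2.29). Incenp encodes a subunit of the chromosomal passenger complex, Prex1 a Rac exchange factor, Mtf1 a metal-responsive transcription factor and Ccnc cyclin C of the Mediator kinase module. The Sec11a peak did not meet the rule with library sizes scaled by TMM, the trimmed mean of M values.

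**Figure D2:**
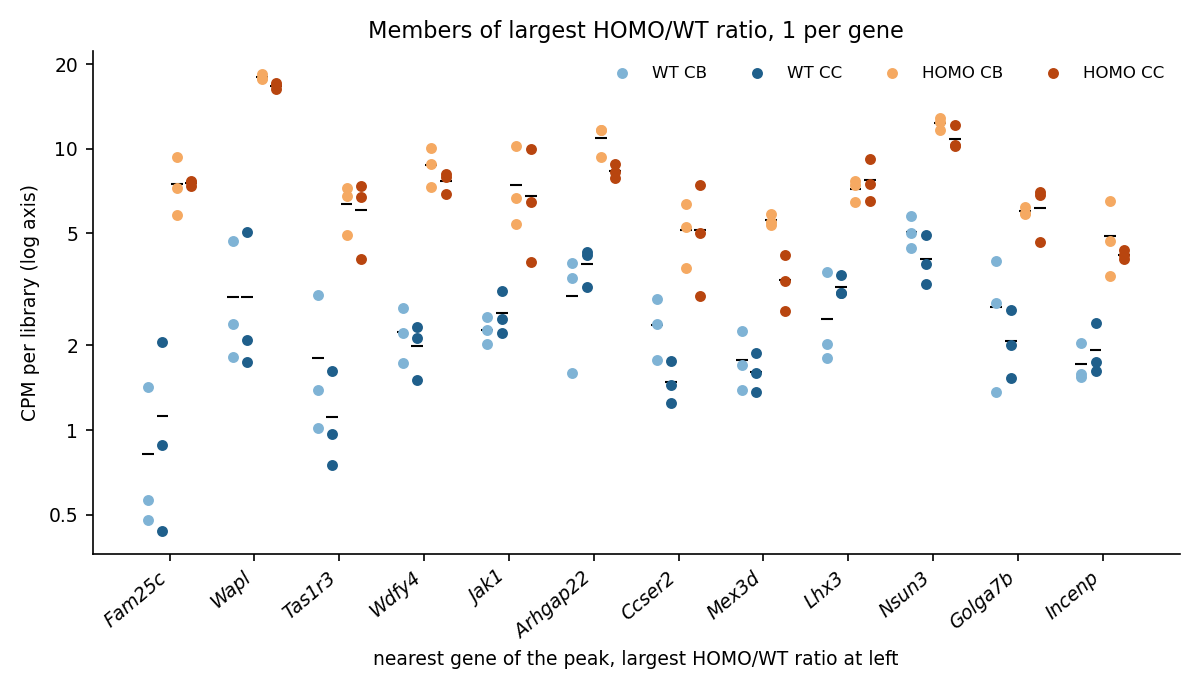
CPM in each of the 12 libraries (vertical, log axis) at the 12 members of largest HOMO to WT ratio, 1 per nearest gene. Points are libraries, coloured by group, and bars are means of 3 libraries; at Wapl the HOMO points lie at 16.3 to 18.5 CPM and the WT points at 1.75 to 5.07 CPM.

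Of the 492 eligible peaks within 10 Mb of Pbrm1, 11 were members (2.24%), against 13 of 1787 on the rest of chromosome 14 (0.727%). The 11 lay at Zmiz1 (2), Wdfy4, Arhgap22 (3), Fam25c (2), Wapl (2) and Ccser2, at positions from -5496 to 5841 kb relative to the middle of Pbrm1. They included 3 of the 4 members with a ratio of at least 3 and also held ratios as low as 1.37. The labels give C57BL/6 for every library, and whether the DNA linked to the knockout allele is of that strain is not stated in the sources used here. The part of nearness to Pbrm1, or of linked DNA, in the ratios at Fam25c, Wapl, Wdfy4 and the others was not tested. The peak at the start of Pbrm1 itself had a ratio of 0.956. A weaker peak inside Pbrm1 (mean 2.98 CPM) had a ratio of 1.6. It was not a member, since its lowest HOMO value was 0.699 times its highest WT value. Neither peak checks the labels, since the deleted part is not known.

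The most accessible members had ratios near the lower limit of the rule. The highest lay 1279 bp from the start of the long noncoding RNA gene Gm34908 with no protein-coding gene within 50000 bp (peak_29486, mean 62.9 CPM, ratio 1.36). Others were at Maz, which encodes a zinc finger transcription factor (62.5 CPM, ratio 1.32), at Lrrc32, the gene of the TGF-beta docking receptor GARP (61.3 CPM, 1.32), and at Csk, the gene of the kinase that restrains Src-family kinases (58.3 CPM, 1.36). At the start of Itga4, which encodes the integrin alpha 4 chain, the libraries had 52.6, 53.1 and 48.1 CPM in the WT CB libraries, 53.9, 49.1 and 48 in WT CC, 70.3, 65.2 and 65.4 in HOMO CB and 67.2, 73 and 66.7 in HOMO CC (peak_6955, chr2:79255037-79255537). The highest WT library was 53.9 CPM and the lowest HOMO library 65.2 CPM at Itga4, a separation that the rule required of every member, and the ratio was 1.34. The Maz and Chrna9 peaks did not meet the rule with TMM-scaled library sizes. The remaining peaks of this group lay at Uts2b, Chrna9, Vwa3b, Vxn, Gimap9 and Gpatch2l (51.2 to 55.5 CPM, ratios 1.3 to 1.35) and at peak_61419, with no protein-coding gene within 50000 bp (60.9 CPM, 1.39).

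At the limits of the rule, members and left-out peaks had nearly equal values. The ratio was 1.3001 at Uts2b and 1.3012 at Myorg, just inside, and 1.2997 at peak_40203 and 1.2995 at Ly6e, just outside. Mean CPM was 2.0081 at Sar1b and 2.0142 at Gabpb2, inside, and 1.9809 at Vinac1 and 1.98 at Actr2, outside. The lowest HOMO value over the highest WT value was 1.00012 at Srgap2 and 1.00032 at Ripor2, inside, and 0.99976 at Vps53 and 0.9997 at Fstl1, outside. The median of that quotient over members was 1.07, so a typical member was separated by a small margin.

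Members lay away from gene ends. Gene-end peaks were those centred at most 1 kb from an end of a protein-coding RefSeq gene. Of the 463 members 34 were gene-end peaks (7.34%, Wilson 95% interval 5.3 to 10.1, counting error only), against 25.3% of eligible peaks. A further 254 lay elsewhere inside genes (54.9%, against 45.9%) and 175 between genes (37.8%, against 28.8%). By the mirrored rule, 57.7% of the 1828 peaks lower in every HOMO library were gene-end peaks. Over all eligible peaks the median HOMO to WT ratio was 0.942 at gene ends and 1.03 both inside and between genes, which are values the rule also used. The difference between the shares was not tested.

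Gene-end peaks are more accessible than others, and the shares were therefore read at matched accessibility. Among eligible gene-end peaks, 0.43% were members at a log2 mean CPM of 1 to 2, 0.331% at 2 to 3, 0.291% at 3 to 4, 0.17% at 4 to 5 and 0.145% above 5. For peaks inside genes the matching values were 1.32%, 0.91%, 0.631%, 0.768% and 0.637%, and for intergenic peaks 0.866%, 0.766%, 0.864%, 1.66% and 1.57%. In each of these 5 ranges the gene-end class held the lowest share. The share of gene-end peaks was 6.01% without the WT libraries numbered 2, 8.08% without the HOMO libraries numbered 1 and 6.46% by TMM-scaled CPM, and 13.3% among all 797 separated peaks.

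Distance from annotated transcription starts gave the same order. Chromosome 18 was not placed, which left 453 members and 59013 eligible peaks. Of these members 19 had their midpoint within 1 kb of a start (4.19%), against 24.5% of eligible peaks. Between 5 and 20 kb lay 169 members (37.3%, against 27.9%), and beyond 50 kb 106 (23.4%, against 15.2%). The median distance was 18200 bp for members and 10400 bp for eligible peaks.

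**Figure D3:**
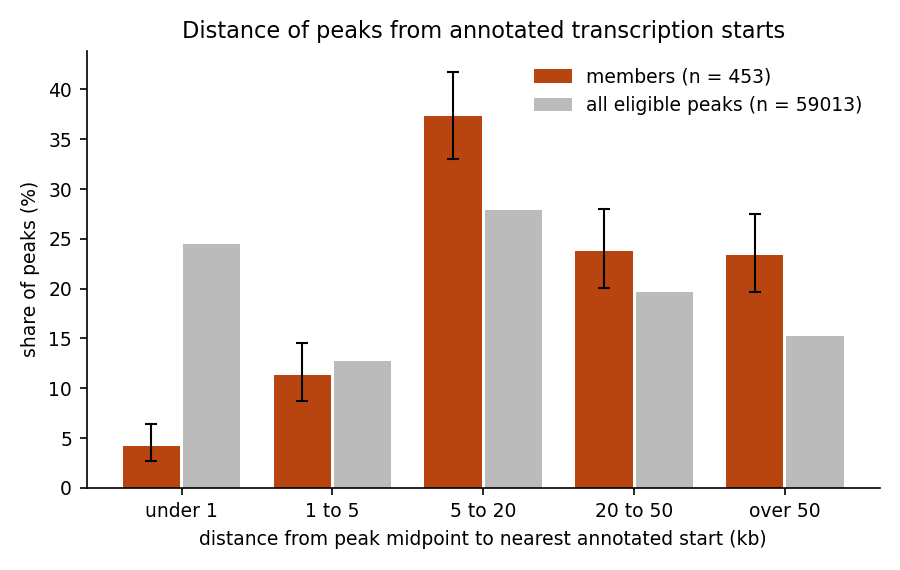
Share of peaks (vertical, %) in 5 ranges of distance from the peak midpoint to the nearest annotated transcription start (horizontal, kb), for the 453 placed members and the 59013 placed eligible peaks. Error bars are Wilson 95% intervals for the members; under 1 kb the members hold 4.19% and the eligible peaks 24.5%, and the order is reversed in the ranges above 5 kb.

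Members were found on all 19 autosomes, from 0.403% of eligible peaks on chromosome 15 (11 members) to 1.32% on chromosome 16 (28 members). The 28 on chromosome 16 included 7 in a run at the Igl locus and 8 between Bcl6 and Lpp, both described below. Another member lay within 100000 bp of 135 members (29.2%), and the chain of such neighbours formed 57 runs of 2 or more. Eligible peaks that were not members also had higher ratios close to a member. Their median ratio was 1.2 within 2 kb (215 peaks, 93.5% above 1), 1.1 at 2 to 10 kb (756 peaks), 1.06 at 10 to 50 kb, 1.02 at 50 to 200 kb and 0.999 beyond 200 kb. Without gene-end peaks the same medians were 1.22, 1.13, 1.08, 1.05 and 1.02. Neighbouring peaks share libraries and local background, so these are not independent observations. Their ratios come from the same HOMO and WT libraries and contrast that the rule used, and they support nothing separately.

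The longest run, 7 members in chr16:19065703-19263620, lay at the immunoglobulin lambda light chain locus Igl, from which a B cell makes one form of its antibody light chain. Within the annotated locus 6 of 21 eligible peaks were members (28.6%), and all 21 had ratios above 1, from 1.18 to 2.18. The member nearest a constant region lay 272 bp from Iglc3, and another lay 685 bp from the variable segment Iglv1. The member of the run with the largest difference in mean CPM, peak_58336 at the lncRNA gene Gm35545 (chr16:19241481-19241981), had 16.2, 18.5 and 16.4 CPM in the WT CB libraries, 12.6, 14.5 and 15.2 in WT CC, 28.3, 29 and 24.3 in HOMO CB and 24.1, 23.5 and 20.6 in HOMO CC. The lowest HOMO library there had 20.6 CPM and the highest WT library 18.5 CPM.

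The 15 Igl peaks that were not members are described by the same HOMO and WT values that the rule used, and they support nothing separately. At 1 of them every HOMO library was above every WT library. Their summed accessibility was 167, 197 and 159 CPM in WT CB, 173, 192 and 160 in WT CC, 229, 250 and 207 in HOMO CB and 225, 245 and 211 in HOMO CC. The HOMO sums were the higher ones. At the kappa light chain locus Igk 1 of 48 eligible peaks was a member (2.08%), 44 had ratios above 1 and the median was 1.33. At the heavy chain locus Igh the 2 eligible peaks had ratios of 0.817 and 0.916. Immunoglobulin segments include near-identical copies, and no source used here states how reads that map to several places were handled, so values at single segments are uncertain.

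The next run lay between Bcl6, the gene of the repressor that defines germinal center B cells, and Lpp. In this interval 8 of 44 eligible peaks were members (18.2%): 5 in chr16:24151746-24207462, of which the last 4 lay at or within 89 bp of the lncRNA gene Gm31814, and 3 in chr16:24336756-24348307. The largest ratio there, 1.68 at peak_58605 (chr16:24185718-24186218, 197102 bp beyond the end of Bcl6), came from 17.6, 20.1 and 10.9 CPM in the WT CB libraries, 15.8, 17.8 and 13.3 in WT CC, 27.1, 28.9 and 22.7 in HOMO CB and 31.3, 29 and 21.4 in HOMO CC. WT CB 3 and WT CC 3 were the lowest of their groups there and HOMO CB 3 and HOMO CC 3 the lowest of theirs. Of all 44 peaks 40 had ratios above 1. The 36 that were not members summed to 466 to 646 CPM in the 6 WT libraries and to 646 to 745 CPM in the 6 HOMO libraries. Thus the highest WT sum (WT CB 2) and the lowest HOMO sum (HOMO CC 3) both rounded to 646 CPM. As at Igl, these ratios and sums use the HOMO and WT values that the rule used, and they support nothing separately.

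**Figure D4:**
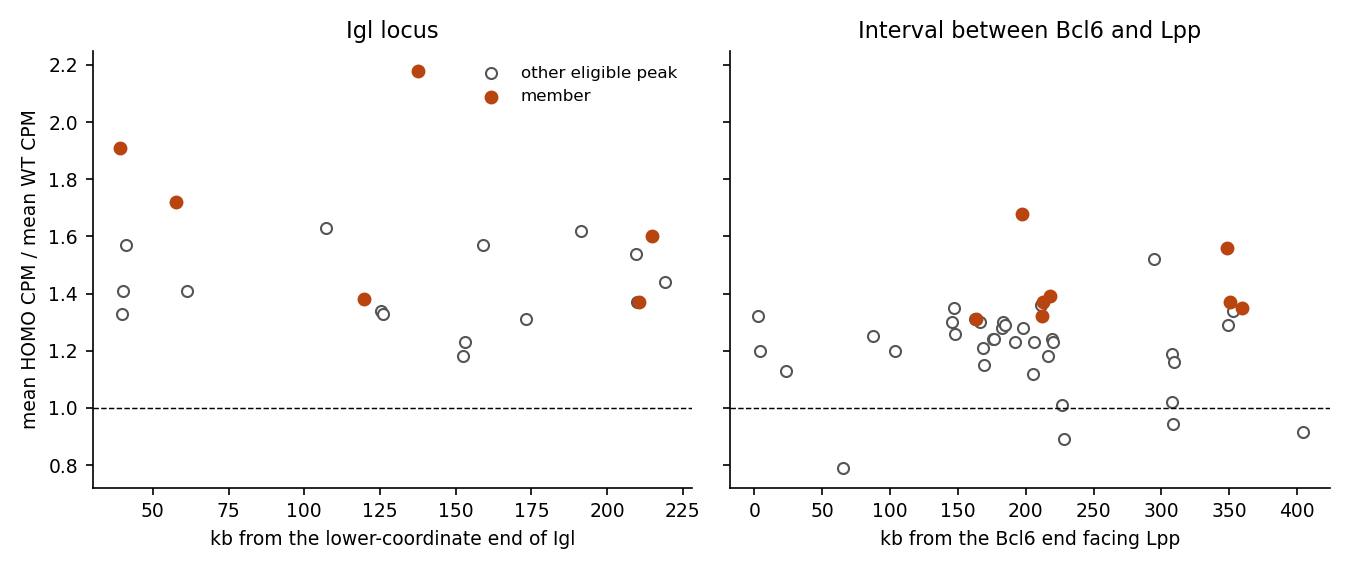
Ratio of mean HOMO to mean WT CPM (vertical) by position in kb (horizontal) for the 21 eligible peaks in the Igl locus (left) and the 44 between Bcl6 and Lpp (right). Filled points are members and open points other eligible peaks; all points of the left panel and 40 of the right lie above the dashed line at 1.

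Shorter runs included 3 members in 5701 bp beside Chrna9, all eligible peaks of that span, with ratios of 1.33 to 1.51. Beside Arhgap35, 3 members in 8463 bp had ratios of 1.36 to 1.82 and were again all eligible peaks of the span. Around Sgms1, a sphingomyelin synthase gene, and Asah2, a ceramidase gene, 4 members lay among 24 eligible peaks. At Ctse, the cathepsin E gene, 3 of the 4 eligible peaks in a span of 14957 bp were members (ratios 1.3 to 1.99). Each of these spans ran from the first to the last member of its run, so its outer peaks were members by construction. A run of 3 on chromosome 10 (chr10:17484868-17516299, ratios 1.72 to 1.97) had no protein-coding gene within 50000 bp.

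In all, 412 members were assigned to the nearest protein-coding gene within 50000 bp, giving 367 genes, of which 37 had 2 or more members and 8 had 3. Such an assignment does not show which gene a region regulates. Among the genes of B cell receptor signalling 7 of 363 eligible peaks were members (1.93%, against 0.762% of all eligible peaks), among them 1 each at Fcgr2b, Bank1, Prkcb, Csk, Syk and Vav1. Their ratios ran from 1.31 to 1.74, and the median over all 363 peaks was 1.06, against 1.01 over all eligible peaks. Gene-end peaks made up 10.5% of the 363, against 25.3% of eligible peaks. Of eligible gene-end peaks 0.221% were members, against 0.91% inside genes and 0.998% between genes. The shares of this and the other lists were not matched for this difference. Syk and Csk are kinases at the receptor, Vav1 is an exchange factor, and Fcgr2b encodes the inhibitory Fc receptor. The Csk peak (peak_34816, chr9:57638564-57639064) had 53.5, 55.1 and 48.3 CPM in the WT CB libraries, 47, 50.1 and 42 in WT CC, 69.4, 69.2 and 68.1 in HOMO CB and 65.5, 66 and 65.3 in HOMO CC. HOMO values at Csk stayed within 65.3 to 69.4 CPM and no WT library exceeded 55.1 CPM.

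Of the 209 eligible peaks at genes of the dark zone program 5 were members (2.39%), at Cxcr4, Foxo1, Bach2 and Ccnd3 (2 peaks), and the list's median ratio was 1.11. Cxcr4, the chemokine receptor that holds cells in the dark zone, had a member 22136 bp away with 16.1, 13.6 and 14.1 CPM in the WT CB libraries, 17, 17.1 and 15.9 in WT CC, 21.7, 23.8 and 21.4 in HOMO CB and 19.1, 23 and 21.4 in HOMO CC (peak_2250, chr1:128614185-128614685). Foxo1, a transcription factor of the dark zone program, had a member 5737 bp away with 8.93, 7.25 and 8.55 CPM in the WT CB libraries, 9.81, 9.01 and 10 in WT CC, 13.7, 11.4 and 11.3 in HOMO CB and 12.9, 13 and 11.8 in HOMO CC (peak_10757, chr3:52262350-52262850). Both separations were narrow, from 17.1 to 19.1 CPM at Cxcr4 and from 10 to 11.3 CPM at Foxo1. Within Ccnd3, the cyclin D3 gene, the stronger member (peak_61597, chr17:47552855-47553355) had 20.3, 17 and 17.2 CPM in the WT CB libraries, 16.8, 18.1 and 14.9 in WT CC, 29.4, 29.4 and 26.4 in HOMO CB and 21.8, 22.9 and 23.7 in HOMO CC. At Ccnd3 the HOMO CB libraries were the highest and the HOMO CC libraries between them and WT.

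Among germinal center transcription factors 6 of 662 eligible peaks were members (0.906%), at Foxo1, Bach2, Foxp1, Irf8 (2 peaks) and Pou2af1, and 1 peak was taken by the mirrored rule. The member beside Pou2af1, the gene of an octamer-factor coactivator, had the largest ratio of the 6 (1.8, 6.05 CPM in WT and 10.9 CPM in HOMO). Neither Irf8 member met the rule by TMM-scaled CPM, nor did the Bank1 member of the receptor signalling list. The light zone program had 1 member of 239 peaks (0.418%) and the NF-kB subunits and inhibitors 1 of 138 (0.725%), in both cases a peak inside Nfkb1, the gene of the p105 and p50 subunit. That peak (peak_12958, chr3:135585447-135585947) had 5.72, 6.23 and 6.93 CPM in the WT CB libraries, 4.5, 4.69 and 5 in WT CC, 14.5, 11.5 and 11.8 in HOMO CB and 13.7, 11.9 and 11.3 in HOMO CC. Its ratio was 2.26, and HOMO values of 11.3 CPM and more stood above WT values of up to 6.93 CPM.

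Migration receptors held 4 members of 229 peaks (1.75%), at Cxcr4, Itga4 and S1pr3 (2 peaks), with ratios of 1.31 to 1.46. Germinal center B cell markers held 2 of 85 (2.35%), both at Ms4a1, the CD20 gene, and only 1 of these (peak_65438) also met the rule by TMM-scaled CPM. Memory precursor genes held 2 of 275 (0.727%, Bach2 and Foxp1), plasma cell genes 1 of 127 (0.787%, Zbtb20), interferon response genes 1 of 71 (1.41%, Irf1) and naive and follicular B cell markers 1 of 189 (0.529%, Foxp1). No peak at the 26 genes of BAF and PBAF subunits with a peak was a member (0 of 195, against 0.762% of all eligible peaks). The mirrored rule took 3 of the 195, against 1828 of all 60792 eligible peaks. The mirrored rule also took 4 NF-kB peaks, 4 interferon response peaks and 1 plasma cell peak. Of the light zone, dark zone and memory precursor lists it took 2 peaks each. It took 0 of the receptor signalling, migration receptor, germinal center marker and naive and follicular marker peaks. Several lists share genes, so these counts overlap.

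Markers of other cells held 1 member, a peak 10611 bp from Cebpb (1 of 30 myeloid peaks, ratio 1.63). There was none among 27 T cell, 9 erythroid and 22 natural killer cell peaks. Of all eligible peaks 0.762% were members, so lists of this size can hold none without differing from the rest. The mirrored rule took 1 myeloid, 1 T cell and 1 natural killer cell peak and 0 erythroid peaks. The summed accessibility of the myeloid peaks was 382 to 466 CPM in WT and 429 to 485 CPM in HOMO, and that of the T cell peaks 240 to 260 CPM in WT and 225 to 243 CPM in HOMO. For the erythroid peaks it was 82.9 to 92.6 CPM in WT and 65.8 to 84.1 CPM in HOMO, and for the natural killer cell peaks 191 to 232 CPM and 172 to 229 CPM. The germinal center B cell marker peaks summed to 1890 to 2020 CPM in WT and 2050 to 2260 CPM in HOMO, and the naive and follicular B cell marker peaks to 2200 to 2490 CPM and 2230 to 2610 CPM. Of these 6 lists the germinal center list was the one whose HOMO sums all lay above its WT sums. The sums include members, which the rule placed higher in HOMO, and 2 of the germinal center marker peaks were members. Nothing is therefore read from this separation. The part of cell composition in the members was not tested.

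The comparison of CC with CB within a genotype was not used by the rule and was tested over all 68689 peaks with edgeR's quasi-likelihood test and Benjamini-Hochberg adjustment. In WT 4 of 463 members passed an adjusted p of 0.05 (0.864%), 1 higher and 3 lower in CC, against 5.43% of all peaks (3.35% higher and 2.08% lower). In HOMO 2 passed (0.432%), 1 in each direction, against 7.22% of all peaks (4.78% higher and 2.44% lower). Because every HOMO library of both populations had to lie above every WT library, the rule limited how far CC and CB could lie apart in a member, and nothing is read from the members' lower share.

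Same-numbered CB and CC libraries of a genotype deviated together, so a replicate block, a term for genotype and number, was also fitted. With the block 40 members were called in WT (5 higher and 35 lower in CC, 8.64%, against 22.1% of all peaks) and 41 in HOMO (12 higher and 29 lower, 8.86%, against 22.2%). Over the 60792 eligible peaks the same fit called 6039 higher and 7840 lower in CC in WT, and 7555 higher and 6375 lower in HOMO. Lower calls outnumbered higher ones among members in both genotypes and among eligible peaks in WT, while higher calls were the more numerous among eligible peaks in HOMO. The difference between these splits was not tested. The median log2 difference without the block was -0.04 in WT and -0.06 in HOMO over members, against -0.04 and -0.01 over eligible peaks. The sign was the same in both genotypes for 316 of 463 members.

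Inside Hivep3, which encodes a large zinc finger protein, a member (peak_15789, chr4:120079104-120079604) had 6.58, 6.23 and 6.14 CPM in the WT CB libraries, 2.98, 3.75 and 3.05 in WT CC, 6.64, 13.3 and 13.1 in HOMO CB and 8.4, 8.27 and 9.88 in HOMO CC. It was lower in CC in WT by edgeR's quasi-likelihood test (log2 difference -1.03, SE 0.23, adjusted p = 0.0116, and 3.90e-06 with the replicate block), a call that was lost without WT CB 1 (0.0545). In HOMO the log2 difference was -0.38 (SE 0.21, edgeR adjusted p = 0.321, and 0.019 with the block). The low HOMO CB 1 value (6.64 CPM) stood apart from the other HOMO CB libraries at Hivep3, and the peak did not meet the rule with TMM-scaled library sizes.

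The member 15390 bp from Ccnc (peak_13781, chr4:21712061-21712561) had 4.13, 3.06 and 3.13 CPM in the WT CB libraries, 6.76, 7.51 and 5.2 in WT CC, 9.77, 9.72 and 8.69 in HOMO CB and 13.2, 14.7 and 12.3 in HOMO CC. In WT it was higher in CC in the edgeR fit (0.81, SE 0.19, adjusted p = 0.0153, and 0.000218 with the block). All 3 CC values were above all 3 CB values in each genotype. The edgeR call was lost without WT CB 2 (0.056), WT CB 3 (0.0565), WT CC 1 (0.0504) or WT CC 2 (0.0859).

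Inside Naa25, the gene of an auxiliary subunit of an N-terminal acetyltransferase, a member had 1.78, 2.04 and 1.84 CPM in the WT CB libraries, 0.804, 0.876 and 1.13 in WT CC, 4.17, 4.42 and 3.03 in HOMO CB and 2.95, 2.96 and 2.61 in HOMO CC (peak_20231, chr5:121421302-121421802). The WT log2 difference of CC from CB was -1.01 (SE 0.29, adjusted p = 0.0435 by edgeR, and 0.0109 with the block). Leaving out WT CB 1, 2 or 3, WT CC 1 or 2, HOMO CB 2, or HOMO CC 2 or 3 ended the call (adjusted p 0.0541 to 0.142). The fourth call in WT, inside Gpatch2l (peak_48233), was a small difference at an accessible peak, from 47.9 ± 3.12 CPM in CB to 41.1 ± 0.985 CPM in CC (mean ± SD, n = 3, log2 difference -0.29, SE 0.08, edgeR adjusted p = 0.0479, and 0.00125 with the block). It was lost without any of 9 libraries (WT CB 1 and 2, WT CC 1, 2 and 3, HOMO CB 2 and 3, and HOMO CC 2 and 3, at 0.0556 to 0.146) and with DESeq2 size factors (0.0501).

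In HOMO the call in favour of CC was a peak 492 bp from the start of Gm19951 and 49591 bp from Efcab11 (peak_48459, chr12:99642354-99642854), with 10.5, 8.61 and 9.87 CPM in the WT CB libraries, 13.2, 13.5 and 13.3 in WT CC, 13.9, 15.2 and 15.2 in HOMO CB and 20.5, 25.4 and 22.4 in HOMO CC. Its log2 difference was 0.6 in HOMO (SE 0.13, edgeR adjusted p = 0.00801, and 1.71e-06 with the block) and 0.38 in WT (SE 0.14, adjusted p = 0.125, and 0.0114 with the block). CC exceeded CB in every library of both genotypes there, and the call was lost without HOMO CC 2 (0.0817). The other HOMO call, a peak in Mex3d, the gene of an RNA-binding protein, was lower in CC, from 5.56 ± 0.261 CPM in CB to 3.41 ± 0.771 CPM in CC (mean ± SD, n = 3, log2 difference -0.79, SE 0.24, edgeR adjusted p = 0.0458, and 0.00197 with the block). It was lost without WT CC 1 or 2, HOMO CB 1, 2 or 3, or HOMO CC 2 or 3 (0.051 to 0.266).

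Of the members at genes of the lists, none was called without the block. With it, edgeR called the Csk member lower in CC in WT (-0.25, adjusted p = 0.00365), as well as the Nfkb1 member (-0.49, adjusted p = 0.0142). The Pou2af1 member was called lower in CC in HOMO (-0.4, edgeR adjusted p = 0.0168), as were both Ccnd3 members (-0.4 and -0.31, adjusted p = 0.00132 and 0.00472). Of the Ccnd3 pair, peak_61598 was also called in WT (-0.33, edgeR adjusted p = 0.0259).

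**Figure D5:**
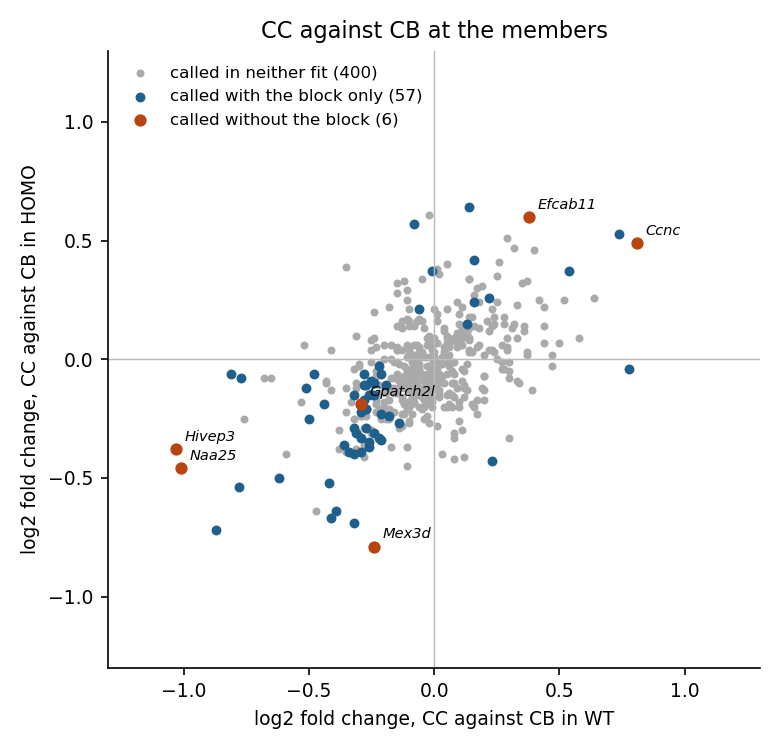
Fitted log2 difference of CC from CB in WT (horizontal) and in HOMO (vertical) without the block for the 463 members. Red points are the 6 members called without the replicate block, blue points the 57 called only with it and grey points the 400 called in neither fit.

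No member was called for a difference between genotypes in its CC to CB difference. The interaction term of the edgeR fit called 0 of 463 members and 0 of all 68689 peaks (0%), with 2 members at an unadjusted p under 0.05 (0.432%, against 1.03% of eligible peaks), and DESeq2 also called 0. With the block the edgeR interaction again called 0, with 17 members at an unadjusted p under 0.05 (3.67%, against 5.64% of eligible peaks). The median standard error of this term was 0.283 on the log2 scale, against 0.2004 for CC against CB in WT, so differences of that order were not detectable with 3 libraries a group. The rule asked for separation in both populations, which limited how far a member's genotype difference could vary between CB and CC. Nothing is read from the members' lower shares of small unadjusted p-values.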

How the data were processed

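Accessibility was measured in 12 Omni-ATAC-seq libraries, 3 in each of 4 groups, with groups and replicate numbers taken from the labels. The authors deposited raw read counts per library in 68689 peaks of 501 bp on mm10. Per the submitters' processing notes the tools included deepTools, R 4.2.1, BWA and FastQC, in roles that are not given, and no source used here gives the peak caller, the counting tool, duplicate removal or the Tn5 offset. The regions and the 16 gene lists were chosen with earlier results of these data known.

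The rule for members used CPM per column total. CC was compared with CB in WT and in HOMO, and the 2 differences with each other, with edgeR 4.0.16 under R 4.3.3 (TMM factors, all 12 libraries in 1 fit with 4 group means, robust dispersions, two-sided quasi-likelihood F tests) and Benjamini-Hochberg adjustment over all peaks at 0.05. DESeq2 1.42.0, its size factors in edgeR, a replicate block and leaving out libraries were alternatives. The filter filterByExpr removed no peak. The test was checked on simulated data. Between replicates the chi-square of counts per degree of freedom was 2.28 to 7.66. Deviations from group means correlated at 0.21 to 0.52 for same-numbered CB and CC libraries of a genotype (6 pairs) and at -0.34 to 0.12 for different-numbered ones (12 pairs). The numbers were treated as pairs in the replicate block only. The main fit, DESeq2 and the fits without some libraries had no term for pairs.

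Peaks were assigned to the nearest of 21896 protein-coding spans of RefSeq (GRCm38.p6) within 50000 bp. Sequences come from 32851 RefSeq promoter windows. Shares of peaks carry Wilson 95% intervals. Tables and figures used Python 3.11.15, numpy 2.4.6, pandas 2.3.3, scipy 1.17.1 and matplotlib 3.10.9.

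Members were named by rule: the 20 of largest ratio and the 10 of highest mean CPM, 1 per gene, up to 3 per list, those called in CC against CB, those at each threshold and those of the 5 densest runs. Further members, such as those near Pbrm1, at Ctse and around Sgms1, and the loci Igk and Igh, were chosen after their values were seen. Some genes that the rule takes in are not reported here.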

Additional observations from a re-analysis of the deposited data

How the results depend on the processing

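The number of members depended on the limits of the rule and on each library. It was 480 with TMM-scaled CPM (400 shared with the 463) and 509 with a minimum of 1 CPM, and it became 282 with a minimum of 5 CPM, 797 without a minimum ratio and 230 with a ratio of at least 1.5. Leaving out 1 library gave 482 to 797, the last without WT CC 2, and leaving out both WT libraries numbered 2 or both HOMO libraries numbered 1, chosen after seeing the data, gave 1248 and 1077; fewer libraries make the rule easier to meet. The replicate block changed the calls of CC against CB from 4 to 40 in WT and from 2 to 41 in HOMO. Without 1 library there were 1 to 5 calls in WT (1 without WT CB 1 or WT CB 2, 2 without WT CC 1, WT CC 2, HOMO CB 2, HOMO CC 2 or HOMO CC 3). In HOMO there were 0 to 4 (0 without HOMO CC 2, 1 without WT CC 2, HOMO CB 2, HOMO CB 3 or HOMO CC 3, 4 without HOMO CC 1). Over all peaks these fits called 1.89% (without WT CB 1) to 6.46% in WT and 2.94% (without HOMO CC 2) to 8.05% in HOMO. Without both WT libraries numbered 2, edgeR called 0 members in WT (against 0.767% of all peaks, 32 members at an unadjusted p under 0.05). In HOMO it called 1 (against 6.48%). Without both HOMO libraries numbered 1 there were 6 calls in WT (against 7.31% of all peaks) and 1 in HOMO (against 5.28%). DESeq2 called 5 members in WT (against 6.64% of all peaks) and 5 in HOMO (against 8.24%). The cause of these changes was not tested. No alternative that was run called a member for the difference between genotypes, and none reversed a named call. The share of members at gene ends was 13.8% within 2.5 kb, 4.32% within 0.5 kb and 4.19% within 1 kb of an annotated start (over eligible peaks 34.4%, 17.5% and 24.5%). How depth bears on the rule was not tested.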

Other observations

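Outside the members, 12 of 1300 peaks on the X chromosome with a mean of at least 2 CPM met the other conditions of the rule (0.923%), as did 48 of 6367 autosomal peaks under 2 CPM (0.754%). Of the 4119 eligible peaks with a ratio of at least 1.3, 463 had no overlap between the genotypes (11.2%). In the Igk locus the 47 eligible peaks that were not members summed to 170 to 249 CPM in the 6 WT libraries and to 225 to 296 CPM in the 6 HOMO libraries, and no single one of them was separated. The Igk sums also use the HOMO and WT values that the rule used, and they support nothing separately. The accessible members between Bcl6 and Lpp included peak_58595 (31.1 CPM in WT and 40.9 CPM in HOMO), peak_58611 (28.8 and 39.6 CPM) and peak_58625 (27.3 and 42.5 CPM).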
